A study of Mus musculus with 6 samples.

Results

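Metallothioneins and the genes that respond to zinc were examined in 3T3 cells given a GapmeR directed against the long noncoding RNA Ntep. The genes were Mt1, Mt2, Mtf1, Slc30a1 and Slc39a10, and every non-control probe that carried one of these symbols in the scanner files was taken. They made up 5 of the 22942 genes that could be named on the array and 8 of its 55681 probes. 3T3 is an established line of mouse embryonic fibroblasts. In each of 3 independent experiments, cells received either GapmeR Ntep, an antisense oligonucleotide that recruits RNase H to its target RNA, or GapmeR control, each at 50 nM for 48 h. The 6 cultures were profiled on 6 Agilent mouse arrays in a single colour, all on 1 slide, giving 3 arrays labelled GapmeR Ntep and 3 labelled GapmeR control. The dose is that of the sample labels, and the study's own documents differ on it (50 nM or 2 × 50 nM) and on the array format. Between 43.7% and 53.3% of the probes on an array were well above background, no probe was saturated, and the small number of arrays limits the precision of every value.

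Metallothioneins are small proteins rich in cysteine that bind zinc, copper and cadmium. The transcription factor MTF1 senses free zinc in the cytosol, moves into the nucleus and binds metal response elements, short DNA motifs in the promoters of Mt1, Mt2 and Slc30a1. Slc30a1 encodes ZnT1, which carries zinc out of the cell, and Slc39a10 encodes ZIP10, which carries zinc in and is held down by MTF1 when zinc is plentiful.

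The targeted RNA was read first. Ntep is named A630089N07Rik in the files and had 1 probe (A_55_P2017924, mm9 chr16:98283712-98283771, minus strand). Its normalized signal, in arbitrary units of brightness, was 472, 91.5 and 226 on the GapmeR Ntep arrays of experiments 1, 2 and 3 and 271, 272 and 361 on the GapmeR control arrays. The array labelled GapmeR Ntep of experiment 1 was thus the brightest of the 6, against its label, whereas in experiments 2 and 3 the GapmeR Ntep array was the dimmer one. The collagen genes Col1a1, Col1a2 and Col3a1, picked after the values were seen, had lower signals on the array labelled GapmeR Ntep in experiment 1 (log2 -0.53, -0.98 and -1.15), as in experiments 2 and 3. The log2 difference between GapmeR Ntep and GapmeR control was -0.48 ± 0.58 (SE, n = 3 arrays each, limma adjusted p = 0.632). For this reason, groups are called by their labels, each direction below is that of the label, and each of the 5 genes is also given without GapmeR Ntep replicate 1, the array of experiment 1. Without that array, 0 genes were called in every list below.

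A gene was called when its adjusted p in limma, corrected over all 30990 tested probes, was under 0.05, and it was represented by its brightest probe. All 5 genes passed the filter on dim probes, and 0 of the 5 were called in either direction. Among all 15242 genes tested, 2.32% were called with higher signals on the arrays labelled GapmeR Ntep and 3.68% with lower ones. At an unadjusted p under 0.05, limma picked out 1 of the 5 genes, Mtf1, where it picked out 28.1% of all genes, and the methods' t-test picked out 0, where it picked out 4030 of the 15242. The limits of the study, a fold of 2 and an unadjusted p under 0.01, here with the p of limma in place of that of the methods' t-test, were met by 0 of the 5 genes, against 3.18% of all genes on the higher side and 5.92% on the lower. The groups did not overlap for 2 of the 5 genes, Mt1 and Mtf1, both with higher signals on the arrays labelled GapmeR Ntep, where 17.8% of all genes were separated in that direction and 18.5% in the other. Chance would give 10% in all if the 6 arrays were exchangeable, a share that ignores their pairing by experiment. The median log2 difference was 0.16 over the 5 genes and 0.00 over all genes, and that of the 5 ranged from 0.14 without GapmeR Ntep replicate 1 to 0.37 without GapmeR Ntep replicate 2. With 75th percentile scaling it was 0.37, or 0.24 relative to all genes.

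Mtf1, which encodes the zinc sensor, had the largest difference of the 5. Its brightest probe (A_52_P467266, mm9 chr4:124526365-124526424, plus strand) gave signals of 4261, 2123 and 2149 on the GapmeR Ntep arrays of experiments 1 to 3 and of 1934, 1330.2 and 1142 on the GapmeR control arrays. Every GapmeR Ntep array lay above every GapmeR control array, with the highest signal of each group in experiment 1. Group means were 2844 ± 1227 and 1469 ± 413 (SD, n = 3 each). The log2 difference was 0.91 ± 0.36 (SE), a 1.88-fold higher signal with a 95% interval of the log2 value from 0.04 to 1.78, and missed the threshold after adjustment (limma adjusted p = 0.184). Within the experiments it was 1.14, 0.67 and 0.91, so that GapmeR Ntep was higher in 3 of 3. With experiments as a replicate block the same difference was called (SE 0.16, limma adjusted p = 0.0439, in a range of 0.0284 to 0.426 over 18 alternatives). That fit called 2443 of all 15242 genes, against 914 without pairing. These counts stand beside every replicate block value below. Without GapmeR Ntep replicate 1 the difference of Mtf1 was 0.58 (adjusted p = 0.314).

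A further Mtf1 probe, A_55_P2069277 (mm9 chr4:124522092-124522151, plus strand), read 2654, 969 and 2454 on the GapmeR Ntep arrays and 672, 515 and 581 on the GapmeR control arrays. The GapmeR control arrays lay close together, while the GapmeR Ntep arrays spread widely, with experiment 2 nearest to the controls, and the groups did not overlap. The log2 difference was 1.66 ± 0.42 (SE, n = 3 each), with an adjusted p of 0.0739 in limma. Its unadjusted p was 0.00700 in limma, under the study's limit of 0.01, and 0.0259 in the methods' t-test, above it. With experiments as a replicate block the adjusted p was 0.0436, and over 18 alternatives it ranged from 0.00614 to 0.234. Without GapmeR Ntep replicate 1 the difference was 1.40 (adjusted p = 0.159), and without GapmeR Ntep replicate 2, the lowest array of its group, it was 2.13 and was called (adjusted p = 0.0378). The other Mtf1 probe, A_52_P55666 (mm9 chr4:124524812-124524871, plus strand), was not well above background on any array, with signals of 20 to 62.4, and was not tested.

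Mt1 encodes metallothionein 1, the first of the zinc-binding proteins under MTF1. Its brightest probe (A_66_P111660, mm9 chr8:96704165-96704224, plus strand) read 237810, 212620 and 245913 on the GapmeR Ntep arrays of experiments 1 to 3 and 154712, 203900 and 208667 on the GapmeR control arrays. The groups did not overlap, but GapmeR Ntep of experiment 2 and GapmeR control of experiment 3 were close to each other, and GapmeR control of experiment 1 was the lowest of the 6. The log2 difference was 0.31 ± 0.19 (SE, n = 3 each, 95% interval -0.16 to 0.77, limma adjusted p = 0.369) and was positive in 3 of 3 experiments (0.62, 0.06 and 0.24). Without GapmeR Ntep replicate 1 it was 0.29 (adjusted p = 0.511).

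The dimmer Mt1 probe, A_52_P423810 (mm9 chr8:96703844-96703903, plus strand), varied far more from array to array. It read 3350.2, 7623 and 9443 on the GapmeR Ntep arrays and 909, 2065 and 5428 on the GapmeR control arrays. In both groups experiment 1 was the lowest and experiment 3 the highest, and the groups overlapped, since GapmeR control of experiment 3 exceeded GapmeR Ntep of experiment 1. Within each experiment the GapmeR Ntep array was the higher one, by 1.88, 1.88 and 0.80 on the log2 scale. The mean difference of 1.52 ± 0.72 (SE, n = 3 each) did not pass in limma without pairing (adjusted p = 0.255) and passed with experiments as a replicate block (SE 0.28, adjusted p = 0.0466), the lowest of 18 alternatives, of which the highest was 0.527. It was 1.96 without GapmeR Ntep replicate 1 (adjusted p = 0.233) and 0.89 without GapmeR control replicate 1 (adjusted p = 0.388). The Mt1 probes therefore shared the direction of their difference and differed in its size.

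Mt2, which encodes metallothionein 2 and neighbours Mt1, was read by 1 probe (A_51_P246317, mm9 chr8:96697371-96697430, plus strand). Signals were 253412, 231246 and 234096 on the GapmeR Ntep arrays and 163006, 254457 and 249907 on the GapmeR control arrays. A single array stood apart, GapmeR control of experiment 1, which was also the lowest for the bright Mt1 probe, and the other 5 arrays overlapped. The log2 difference was 0.13 ± 0.23 (SE, n = 3 each, 95% interval -0.42 to 0.69, limma adjusted p = 0.736). By experiment it was 0.64, -0.14 and -0.09, so that GapmeR Ntep was higher in 1 of 3. Without GapmeR control replicate 1 it turned to -0.07 (adjusted p = 0.788), and without GapmeR Ntep replicate 1 it was 0.09 (adjusted p = 0.871).

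Slc30a1, the exporter gene under MTF1, had 1 probe (A_51_P300572, mm9 chr1:193736760-193736819, plus strand). It read 1849, 736 and 1605 on the GapmeR Ntep arrays and 1181, 1042 and 1273 on the GapmeR control arrays. The GapmeR Ntep arrays held both the highest signals, in experiments 1 and 3, and the lowest, in experiment 2, with all GapmeR control arrays between them. The log2 difference of 0.16 ± 0.37 (SE, n = 3 each, 95% interval -0.75 to 1.07, limma adjusted p = 0.815) was small beside the distances among the GapmeR Ntep arrays. Its sign was positive in 2 of 3 experiments (0.65, -0.50 and 0.33) and negative without GapmeR Ntep replicate 1, at -0.10 (adjusted p = 0.907).

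Slc39a10, the importer gene, had 1 probe (A_51_P223498, mm9 chr1:46865343-46865402, minus strand). It read 5235, 5494 and 5834 on the GapmeR Ntep arrays and 6226, 4754 and 4555 on the GapmeR control arrays. GapmeR control of experiment 1 was the highest array, the other GapmeR control arrays were the lowest, and the GapmeR Ntep arrays lay close together between them. The log2 difference was 0.11 ± 0.19 (SE, n = 3 each, 95% interval -0.35 to 0.56, limma adjusted p = 0.754), from -0.25, 0.21 and 0.36 in the experiments. Without GapmeR Ntep replicate 1 it was 0.14 (adjusted p = 0.744).

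**Figure D1:**
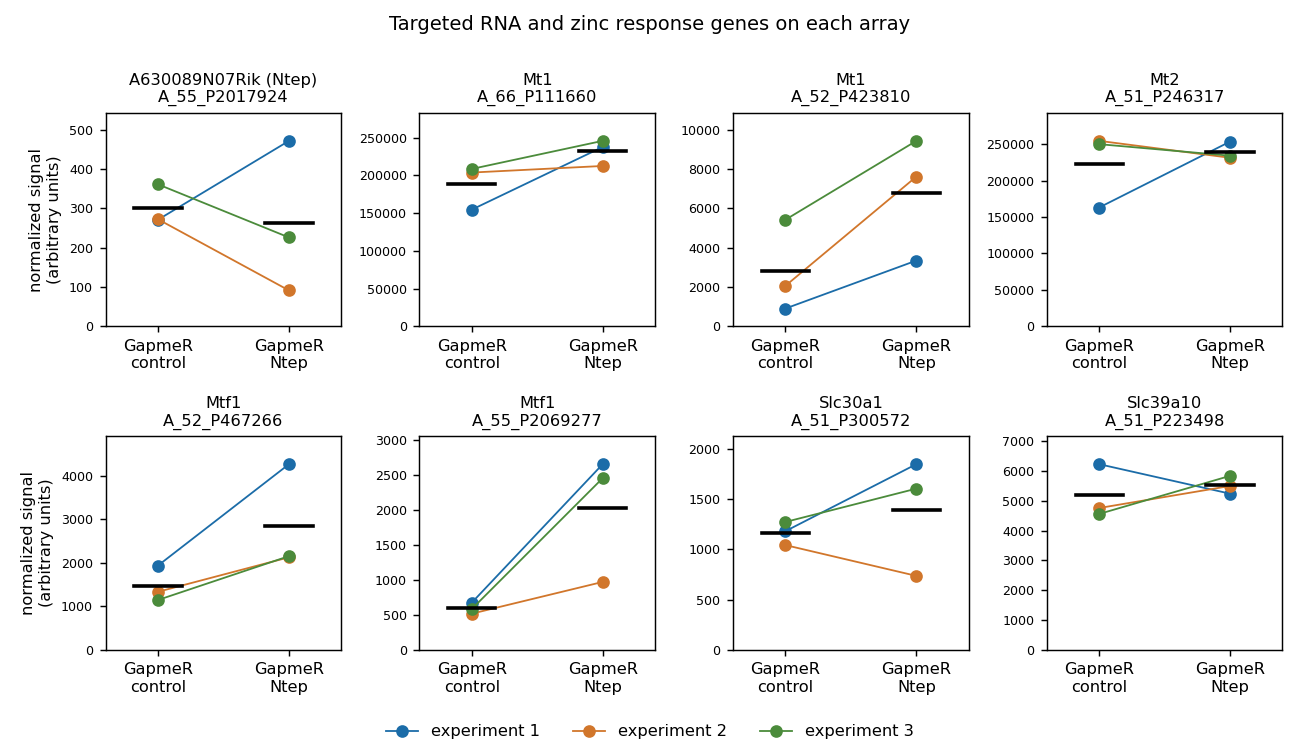
Normalized signal (vertical axis, arbitrary units, from 0) of the Ntep probe and the 7 tested probes of Mt1, Mt2, Mtf1, Slc30a1 and Slc39a10 on the arrays labelled GapmeR control and GapmeR Ntep. Points are single arrays, lines join the arrays of an experiment and black bars are group means (n = 3 each), and all GapmeR Ntep points lie above all GapmeR control points for the 2 Mtf1 probes and the bright Mt1 probe alone.

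Scaling the arrays to their 75th percentile in place of quantiles moved the median log2 difference of all tested genes to 0.13. Relative to that median the differences were 0.79 for the brightest probe of Mtf1, 0.39 for that of Mt1, 0.24 for Mt2, 0.05 for Slc30a1 and -0.01 for Slc39a10. The sign of Slc39a10 was thus not the same under both scalings, and 0 of the 5 genes were called under either.

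Because Mt1, Mt2 and Slc30a1 are known through the metal response elements near their start, the 250 bases before the start of transcription were taken from the RefSeq promoter table (GRCm38.p6), which held windows for all 5 genes. The core motif was searched on both strands as TGCACNC and TGCGCNC, where N is any base. Of 32851 promoters of this length, 21.4% held at least 1 match, 5.17% at least 2 and 1.26% at least 3. The Mt2 window held 3 matches (chr8:94172368-94172617, plus strand), and those of Mt1 (chr8:94178839-94179088, plus strand) and Slc30a1 (chr1:191906531-191906780, plus strand) held 1 each. With the 50 bases after the start included, the numbers were 4, 3 and 2, where 0.517%, 1.97% and 7.11% of all such windows of 300 bases held as many. The window of Mtf1 and both windows of Slc39a10 held 0 at either length. The sequences that hold a match are shown, matches in capitals, on the strand of the gene, to let the motif be seen beside the values of these genes. A match describes the letters only.
Mt2: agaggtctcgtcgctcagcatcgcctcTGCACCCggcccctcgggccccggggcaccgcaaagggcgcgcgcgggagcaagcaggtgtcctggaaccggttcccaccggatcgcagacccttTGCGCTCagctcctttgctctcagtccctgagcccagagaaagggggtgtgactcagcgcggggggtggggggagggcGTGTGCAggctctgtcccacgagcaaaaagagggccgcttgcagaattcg
Mt1: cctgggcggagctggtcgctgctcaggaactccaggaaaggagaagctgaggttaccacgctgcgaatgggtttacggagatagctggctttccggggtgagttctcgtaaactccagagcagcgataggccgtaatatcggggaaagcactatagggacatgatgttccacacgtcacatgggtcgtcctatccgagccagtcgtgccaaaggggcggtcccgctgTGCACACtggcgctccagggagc
Slc30a1: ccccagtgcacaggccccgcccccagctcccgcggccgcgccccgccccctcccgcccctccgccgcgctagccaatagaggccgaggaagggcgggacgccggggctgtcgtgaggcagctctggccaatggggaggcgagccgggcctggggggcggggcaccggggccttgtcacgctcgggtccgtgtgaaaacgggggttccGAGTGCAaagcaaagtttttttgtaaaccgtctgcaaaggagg

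In Mt2 the matches began 223, 128 and 50 bases before the start, and in Slc30a1 43 bases before it. The Mt1 match began 23 bases before the start that the table gives, and both its position and the count of 1 hold for that start alone, as windows of other Mt1 starts were not searched. Of the 3 genes with a match, none was called, and Mtf1, whose product binds the motif, held none in its own window.

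The remaining metallothioneins and zinc transporters were taken as lists. Mt3 and Mt4, metallothioneins known mainly from brain and from stratified epithelia, were both tested and not called. The signal of Mt3 was 464 ± 92.7 on the GapmeR Ntep arrays and 345 ± 16.2 on the GapmeR control arrays (SD, n = 3 each), a log2 difference of 0.41 ± 0.20 (SE, limma adjusted p = 0.262) without overlap. Mt4 read 314 ± 23.8 and 293 ± 30.7, a difference of 0.10 ± 0.17 (limma adjusted p = 0.732). Without 1 array the log2 difference ranged from 0.26 to 0.53 for Mt3 and from 0.02 to 0.17 for Mt4. The lowest value of Mt4 under the other 12 alternatives was -0.04. At an unadjusted p under 0.05, limma and the methods' t-test each picked out 0 of these genes.

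Of the 9 further zinc exporters of the Slc30a family, 7 were tested and 0 were called, with a median log2 difference of 0.04 where that of all genes was 0.00, and of -0.01 relative to all genes with 75th percentile scaling. The median ranged from -0.07 without GapmeR Ntep replicate 1 to 0.08 without GapmeR control replicate 1. At an unadjusted p under 0.05, where limma picked out 28.1% of all genes and the methods' t-test 4030 of 15242, each picked out 1 gene. This was Slc30a6, which loads zinc into the secretory pathway, with 1560.2 ± 78.9 on the GapmeR Ntep and 2213 ± 322 on the GapmeR control arrays (SD, n = 3 each), a log2 difference of -0.50 ± 0.18 (SE, limma adjusted p = 0.157) that was negative in 3 of 3 experiments. Slc30a8, the transporter of insulin granules, was well above background on 1 of the 6 arrays, GapmeR Ntep of experiment 3 at 149.9, and read 20, the floor, on the other 5. Slc30a2 differed by -0.14 ± 0.23 and Slc30a7 by 0.09 ± 0.24 on the log2 scale (limma adjusted p = 0.732 and 0.834). The sign of both turned without 1 array, with ranges of -0.25 to 0.05 for Slc30a2 and -0.08 to 0.25 for Slc30a7. With 75th percentile scaling Slc30a2 was 0.13, or -0.01 relative to all genes. Slc30a7 was -0.03 relative to all genes with that scaling, and -0.38 and 0.33 by its dimmer probes.

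Among the 13 further zinc importers of the Slc39a family, 11 were tested and 0 were called. The median was 0.21, or 0.16 to 0.42 without 1 array. A positive difference was found for 9 of the 11, where 50.2% of all genes had one. Some of the 9 were small beside their SE, as for Slc39a7 (0.04 ± 0.20) and Slc39a1 (0.17 ± 0.38). All were read on the same 6 arrays, so the count is not a test. Relative to all genes under 75th percentile scaling, the median was 0.35, again with 9 positive. At an unadjusted p under 0.05, limma and the methods' t-test each picked out 3, namely Slc39a8, Slc39a11 and Slc39a14. This was close to the share over all genes, 28.1% in limma and 4030 of 15242 in the methods' t-test. Slc39a14, which encodes ZIP14, an importer of zinc and iron, read 3699, 2050 and 2216 on the GapmeR Ntep arrays and 1402, 982 and 912 on the GapmeR control arrays. All GapmeR Ntep arrays lay above all GapmeR control arrays, the highest of each group being that of experiment 1. The log2 difference was 1.25 ± 0.30 (SE, n = 3 each, limma adjusted p = 0.0699, or 0.0323 with the replicate block). It passed a fold of 2, and its unadjusted p was 0.00611 in limma and 0.0192 in the methods' t-test, on either side of the study's limit of 0.01.

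Slc39a8, which encodes the closely related ZIP8, went the other way. It read 25.2, 77.1 and 55.5 on the GapmeR Ntep arrays, of which 1 was well above background, and 155, 226 and 193 on the GapmeR control arrays, all 3 well above it. The groups did not overlap, and the difference was -1.99 ± 0.43 (SE, n = 3 each, limma adjusted p = 0.0558, or 0.0337 with the replicate block). The unadjusted p was 0.00361 in limma and 0.0168 in the methods' t-test. With most GapmeR Ntep signals at background its size depended on the processing, from -2.36 to -0.85 over 18 alternatives. With 75th percentile scaling Slc39a8 was called (-1.77, or -1.91 relative to all genes, adjusted p = 0.0383). Slc39a11 differed by 0.80 ± 0.22 (limma adjusted p = 0.0911) and Slc39a6 by 0.71 ± 0.47 (adjusted p = 0.400), the latter 0.41 to 1.18 without 1 array. Taken as 1 set, 0 of the 18 tested transporters other than Slc30a1 and Slc39a10 were called, and 5 of them had a negative difference.

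The list of further genes described as targets of MTF1 held 5 genes, all tested, of which 1 was called higher and 0 lower. The called gene was Ndrg1, known as a stress gene induced by hypoxia and metals. It read 5949, 5751 and 5783 on the GapmeR Ntep arrays and 1254, 2304 and 2042 on the GapmeR control arrays. The GapmeR Ntep arrays were nearly level, and all lay above the GapmeR control arrays, with the lowest control in experiment 1. Ndrg1 rose by 1.69 ± 0.26 on the log2 scale (SE, n = 3 each, 3 of 3 experiments, limma adjusted p = 0.0312), but leaving out any 1 of the 6 arrays ended the call (adjusted p from 0.0538 to 0.127, and 0.0693 without GapmeR Ntep replicate 1). It was also not called without the filter on dim probes (adjusted p = 0.0762) or by the methods' t-test (0.0780).

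The other genes of that list were not called and did not share a direction. Gclc, which makes the precursor of glutathione, read 3162 ± 633 on the GapmeR Ntep and 4950.2 ± 495 on the GapmeR control arrays, a log2 difference of -0.66 ± 0.21 (SE, n = 3 each, limma adjusted p = 0.124) without overlap. Slc40a1, the iron exporter ferroportin, read 3422 ± 1782 and 7181 ± 3683. Its difference of -1.04 ± 0.58 (adjusted p = 0.323) was called with the replicate block (adjusted p = 0.0436), as were 2443 of all 15242 genes. Csrp1 differed by -0.23 ± 0.32 and Selenow by 0.16 ± 0.21 on the log2 scale (adjusted p = 0.685 and 0.665). Csrp1 ranged from -0.49 to -0.00 without 1 array and was 0.03 with 75th percentile scaling, or -0.11 relative to all genes, and Selenow ranged from -0.01 to 0.26 without 1 array. The median of the list was -0.23, from -0.49 without GapmeR Ntep replicate 1 to -0.01 without GapmeR control replicate 1, and 0.03 with 75th percentile scaling, or -0.11 relative to all genes.

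**Figure D2:**
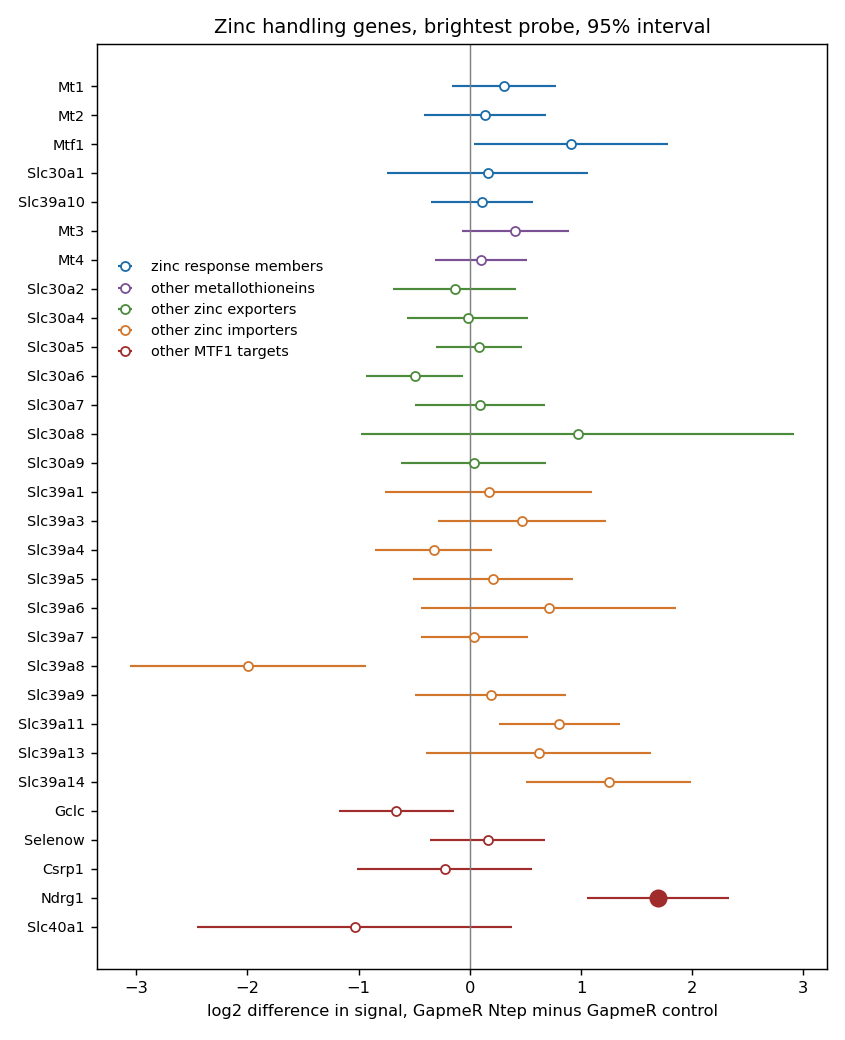
Log2 difference in normalized signal between GapmeR Ntep and GapmeR control (horizontal axis) for the 5 genes and for the tested genes of the other zinc lists, brightest probe each, with 95% intervals from limma (n = 3 arrays each). The filled point is Ndrg1, called at 1.69, open points were not called, Slc39a8 lies farthest left at -1.99 (-2.36 to -0.85 over 18 alternatives), and Slc39a10, Slc30a4, Slc30a7 and Slc30a9, all near 0, change sign relative to the median of all genes under 75th percentile scaling.

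Metallothioneins also respond to copper, cadmium and glucocorticoids, so genes of these responses were read beside them. Of 9 copper handling genes 8 were tested and 0 called, with a median log2 difference of -0.18, or -0.21 to -0.10 without 1 array, and -0.02 with 75th percentile scaling, or -0.16 relative to all genes. At an unadjusted p under 0.05, limma picked out Atp7a, and the methods' t-test Atp7a and Sod1. Over all genes it was 28.1% in limma and 4030 of 15242 in the methods' t-test. Cox17 also fell under 0.05 in both, but is not counted, since its p is not read as a test. Atp7a, the copper exporter, read 3126 ± 1139 on the GapmeR Ntep and 5715 ± 655 on the GapmeR control arrays (SD, n = 3 each), a difference of -0.93 ± 0.29 (SE, limma adjusted p = 0.118) that was negative in 3 of 3 experiments. Cox17, a copper chaperone, passed the filter through the GapmeR control group alone. It was not well above background on the GapmeR Ntep arrays and was so on 2 of 3 GapmeR control arrays, so that its signal was at least 1.14-fold higher on the latter. Since the filter was passed by the brighter group alone, its limma adjusted p (0.101, or 0.0397 with the replicate block) is listed only and not read as a test. That bound sets the GapmeR control mean against, per array, the higher of the probe's own signal and the lowest signal of any probe well above background. Ccs differed by -0.36 ± 0.18 and Slc31a2 by 0.29 ± 0.36 (limma adjusted p = 0.282 and 0.644). Slc31a2 ranged from 0.03 to 0.58 without 1 array and was -0.09 by its dimmer probe.

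All 11 iron handling genes were tested and 0 were called. At an unadjusted p under 0.05, limma and the methods' t-test each picked out Slc25a37 and Steap3. Over all genes it was 28.1% in limma and 4030 of 15242 in the methods' t-test. Hfe also fell under 0.05 in both, but is not counted, since its p is not read as a test. The median was 0.03, or -0.01 to 0.15 without 1 array, and 0.24 with 75th percentile scaling, or 0.11 relative to all genes. Hfe, a regulator of iron uptake, read 22.6, 89.6 and 35.7 on the GapmeR Ntep arrays, 1 of them well above background, and 137, 278 and 248 on the GapmeR control arrays. The groups did not overlap, and the log2 difference was -2.34 ± 0.56 (SE, n = 3 each, limma adjusted p = 0.0670, or 0.0324 with the replicate block). Hfe passed the filter through the GapmeR control group alone, so its p is listed only and not read as a test. With most GapmeR Ntep signals at background the size of its difference is not exact, and over 18 alternatives it ranged from -2.92 to -0.88. Steap3, a ferrireductase, differed by 0.76 ± 0.16 (adjusted p = 0.0541, or 0.0495 with the block), Slc25a37, the iron importer of mitochondria, by 0.89 ± 0.20 (0.0608) and Ireb2 by 0.99 ± 0.47 (0.257).

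Of 7 glucocorticoid-responsive genes, 6 were tested, 1 was called higher and 0 lower, and the median was 0.86, or 0.81 relative to all genes with 75th percentile scaling. Per1, a clock gene that glucocorticoids induce, rose from 18321 ± 1625 on the GapmeR control to 40104 ± 5708 on the GapmeR Ntep arrays (SD, n = 3 each), by 1.12 ± 0.18 on the log2 scale (SE, limma adjusted p = 0.0335) and in 3 of 3 experiments. The call was lost without any 1 array other than GapmeR Ntep replicate 2 (adjusted p from 0.0632 to 0.149, and 0.0636 without GapmeR Ntep replicate 1), without the filter on dim probes (0.0524) and with the methods' t-test (0.0601). Klf9, a further target of the glucocorticoid receptor, differed by 1.11 ± 0.25 (adjusted p = 0.0607) and was called under 5 of 18 alternatives. A dimmer Klf9 probe, not well above background on any GapmeR control array, was at least 2.26-fold higher on the GapmeR Ntep arrays. That probe passed the filter on dim probes through the GapmeR Ntep group alone, so no p is given for it. Sgk1 differed by 1.38 ± 0.65 (limma adjusted p = 0.253), Tsc22d3 by 0.60 ± 0.28 (0.240) and Fkbp5 by 0.23 ± 0.15 (0.404). Tsc22d3 ranged from 0.36 to 0.76 without 1 array. Of the 6 tested genes 5 had a positive difference and 1 a negative one, Nr3c1, at -0.23 ± 0.23 (0.575). A dimmer Nr3c1 probe gave 1.02 (0.235).

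The 6 NRF2 genes that respond to cadmium were all tested and 0 were called. The median was 0.55 under quantiles and 0.57 relative to all genes with 75th percentile scaling. All 6 had a positive difference, where 50.2% of all genes had, and this shared direction holds for the list as drawn. Gclc, placed in the MTF1 list and not here, differed by -0.66 ± 0.21 (SE, limma adjusted p = 0.124). Both limma and the methods' t-test gave 1 gene, Srxn1, an unadjusted p under 0.05. Over all genes it was 28.1% in limma and 4030 of 15242 in the methods' t-test. With array weights, which called 2766 of all 15242 genes higher, 4 of the 6 were called higher (Gclm, Hmox1, Slc7a11 and Srxn1). With so many genes called, that count is not read as a result about the list. Srxn1, which repairs oxidised peroxiredoxins, differed by 0.60 ± 0.21 (SE, n = 3 each, limma adjusted p = 0.151), and Hmox1, heme oxygenase, by 0.49 ± 0.28 (0.321). Gclm differed by 0.79 ± 0.49 (0.367) and Slc7a11, the cystine importer, by 0.72 ± 0.49 (0.408), with ranges of 0.37 to 1.23 and 0.42 to 1.16 without 1 array.

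Fibroblast markers checked the labelled cell type. Of 10 such genes 9 were tested, 0 were called and 8 had a negative difference, with a median of -0.71. The median ranged from -0.93 without GapmeR Ntep replicate 2 to -0.47 without GapmeR Ntep replicate 1. With 75th percentile scaling it was -0.48, or -0.62 relative to all genes. Limma and the methods' t-test each picked out 2 of the 9 at an unadjusted p under 0.05. Over all genes it was 28.1% in limma and 4030 of 15242 in the methods' t-test. The summed signal of the 10 genes was 455023, 598855 and 459380 on the GapmeR Ntep arrays and 688289, 745809 and 673299 on the GapmeR control arrays, without overlap, and Col1a2 was the brightest. Dcn was called lower with the replicate block (adjusted p = 0.0310), but was well above background on 1 of 3 GapmeR Ntep arrays and its groups overlapped. With array weights 5 of the 9 were called lower, where 2948 of all 15242 genes were.

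Macrophage markers were read in the same way. Of 5 genes 3 were tested, Cd68, Csf1r and Itgam, and Cd68 was called higher (log2 difference 1.21 ± 0.17, SE, n = 3 each, limma adjusted p = 0.0287). The call was lost without any 1 array other than GapmeR Ntep replicate 2 (adjusted p from 0.0586, without GapmeR Ntep replicate 1, to 0.136) and with the methods' t-test (0.0502). Csf1r differed by 3.19 (adjusted p = 0.151), with overlap, and Itgam by 1.26 (0.0881), and both were called with the replicate block (0.0387 and 0.0397), which called 2443 of the 15242 genes. Dimmer probes gave 0.68 for Cd68 (adjusted p = 0.143), 0.44 for Csf1r (0.267) and -0.03 for Itgam (0.956). The defining leukocyte and macrophage genes Ptprc and Adgre1 were not well above background on any array. The summed signal of the list was 62630, 32969 and 41525 on the GapmeR Ntep arrays and 21130.1, 15431 and 17460 on the GapmeR control arrays, with Itgam the brightest. On the arrays, fewer cells of a kind and less RNA per cell cannot be told apart, and the part of these markers in the values of Mtf1, Slc39a14 or Ndrg1 was not tested. Of 4 epithelial markers 4 were tested and of 4 endothelial markers 2, with 0 called in either list. At an unadjusted p under 0.05, limma picked out 1 gene of each, and the methods' t-test 0 and 1. Over all genes it was 28.1% in limma and 4030 of 15242 in the methods' t-test.

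Across the 6 arrays, patterns were compared with those of 11290 other genes well above background on all of them. Pearson correlation of log2 signals describes likeness over 6 arrays that share 3 experiments, and with so many genes compared, high values arise for any pattern. Closest to Mt1 were Pycrl (r = 0.987), Kmt2e (0.983) and Prr13 (0.982), and closest to Mt2 were Chd7 (0.992), Card6 (0.987) and Idh1 (0.976). For Slc30a1 they were Medag (0.994), Lemd3 (0.990) and Dkc1 (0.985), and for Slc39a10 Smpd3 (0.983), Usp24 (0.981) and Ccl5 (0.974). The log2 differences of these 12 genes lay between 0.04 and 0.51, and none was called, with limma adjusted p from 0.291 to 0.910. They were picked for their likeness to genes that were themselves not called, so this is not a separate result.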

How the data were processed

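Gene expression was measured on 6 single-color Agilent arrays of 3T3 cells. The deposited scanner files hold one array each: per the file headers, the authors extracted intensities with Agilent Feature Extraction 10.7.3.1, as background-subtracted, spatially detrended intensities on a linear scale that were not normalized between arrays. The authors also deposited a table of quantile normalized intensities, with a floor of 20 and a median of 54.3 in every column; its log2 values correlated with those computed here at 0.99989 to 0.99999, so that its linear scale was known, and it was used as an alternative.

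Spots of a probe were averaged, the arrays were quantile normalized and values under 20 were set to 20. A probe was tested if either group had a mean of 50 or more, which kept 30990, and these were compared on the log2 scale with limma 3.58.1 (lmFit, eBayes, two-sided, without pairing) in R 4.3.3, with Benjamini-Hochberg adjustment over them. The unpaired design, the floor, the cutoff of 50 and the limits of fold 2 and p under 0.01 followed the methods of the study. limma replaced its t-test because each group holds 3 arrays, and the t-test was kept as an alternative. An exact permutation test of 3 against 3 arrays cannot fall below 0.1. Accessions and symbols of RefSeq (GRCm38.p6) named 31239 of 55681 probes; probe coordinates are those of the files (mm9). The brightest probe, by mean log2 signal, stood for a gene.

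Members and lists were chosen with earlier results of these data known. Named were all member probes, the called genes of each list with at most 4 others of largest difference, and the 3 genes of most similar pattern to Mt1, Mt2, Slc30a1 and Slc39a10. Nr3c1, the marker genes and the dimmer probes of list genes were named after the values had been seen.

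Array numbers come from the study's documentation sheet, which pairs the arrays in its ratios. Residuals of arrays from the same experiment correlated at 0.25 to 0.47, whereas arrays of different experiments gave -0.33 to 0.13. The numbers thus pair the arrays, and a fit with the replicate block was run beside the unpaired one. Alternatives covered normalization, background correction, floor, filters, outlier spots, array weights, the variance trend, the methods' t-test and leaving out each array. The steps were tested on simulated data.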

Additional observations from a re-analysis of the deposited data

How the results depend on the processing

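The log2 difference of each of the 5 genes was recomputed under 18 alternatives. Mt1 (0.17 to 0.52) and Slc39a10 (0.02 to 0.28) kept their positive sign and were not called under any of them, although Slc39a10, at 0.13 with 75th percentile scaling, was -0.01 relative to the median of all genes there. Mtf1 also kept its sign, was called with the replicate block (0.91, adjusted p = 0.0439) and with array weights (0.84, adjusted p = 0.0284), and was not called under the other 16 (adjusted p up to 0.426). Mt2 turned negative with array weights (-0.0589), and Mt2 was -0.0726 without GapmeR control replicate 1. Slc30a1 turned to -0.10 without GapmeR Ntep replicate 1, and the cause of these sign changes was not tested.

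Leaving out 1 array at a time gave 0.17 to 0.38 for Mt1, -0.07 to 0.25 for Mt2, 0.58 to 1.12 for Mtf1, -0.10 to 0.57 for Slc30a1 and 0.02 to 0.24 for Slc39a10. Among the dimmer probes, Mt1 A_52_P423810 was called with the replicate block alone (1.52) and ranged from 0.89 to 2.19, and Mtf1 A_55_P2069277 under 6 of 18 alternatives, its difference ranging from 1.40 to 2.13.

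Of all genes, 914 were called. The count was 1563 with normexp, 1669 with probes well above background in a whole group, 1684 with the intensity trend, 2443 with the replicate block and 5714 with array weights. It was 324 with no filter on dim probes, where more probes were adjusted over, and 170 with the methods' t-test. Leaving out 1 array gave 0 to 789, namely 0 without GapmeR control replicate 2 or without GapmeR Ntep replicate 3, 4 without GapmeR control replicate 3, 86 without GapmeR control replicate 1 and 304 without GapmeR Ntep replicate 1. Of called genes 38.6% were higher, against 52.2% without the filter, 51.8% with the methods' t-test and 38.1% with 75th percentile scaling. Without 1 array the share was 25.6% (GapmeR control replicate 1), 31.3% (GapmeR Ntep replicate 1) and 32.2% (GapmeR Ntep replicate 2), and the other 3 fits called 4 genes or fewer. The limits of the study were met by 1387 genes, by 2456 with array weights, by 790 with the methods' t-test and by 837 to 1720 without 1 array (837 without GapmeR control replicate 2 and 912 without GapmeR control replicate 3). Of the 5 genes, 0 were called, and 1 with the replicate block and with array weights; without 1 array the number was 0 to 0.

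Over 18 alternatives, or 17 for Cox17, which was not tested with the filter on probes well above background, the adjusted p ranged from 0.00598 to 0.229 for Slc39a14, 0.00462 to 0.197 for Slc39a8, 0.00448 to 0.222 for Hfe, 0.0114 to 0.21005 for Steap3, 0.0258 to 0.631 for Slc40a1, 0.0148 to 0.4696 for Cox17, 0.0140 to 0.376 for Csf1r, 0.00794 to 0.269 for Itgam, 0.00357 to 0.136 for Cd68, 0.00366 to 0.127 for Ndrg1 and 0.00349 to 0.149 for Per1. The ranges of Hfe and Cox17, which passed the filter through the GapmeR control group alone, are listed only and not read as tests. Among list genes the replicate block also changed the calls given beside each gene, and no other call among the genes of the lists, by brightest probe. A slide block was not run, as all arrays lay on 1 slide. With array weights, which called 5714 of the 15242 genes, 2 of the 7 further exporters were called, 4 of the 11 importers, 3 of the 5 MTF1 targets and 3 of the 8 copper genes. So were 4 of the 11 iron genes, 3 of the 6 glucocorticoid genes, 4 of the 6 NRF2 genes and 5 of the 9 fibroblast markers. All 3 macrophage markers, 1 of the 4 epithelial markers and 1 of the 2 endothelial markers were called too. With so many genes called, these counts are not read as results about the lists. Signals near the floor, as for Slc30a8, Slc39a8, Hfe, Cox17 and Dcn on some arrays, limit what their differences can show.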
